A study of Caenorhabditis elegans with 6 samples.

Results

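The insulin-like peptide genes of C. elegans were taken as every gene in the count tables whose symbol is ins- followed only by digits, together with daf-28. This rule used names alone and gave 40 genes of the 46726 counted. Symbols for 39 of them came from the gene name table, and ins-38, a pseudogene without a symbol there, was matched through the RefSeq symbol at the same coordinates on WBcel235. The libraries were polyA-selected RNA-seq of GFP-positive cells sorted from dissociated L4 animals, 3 of them wild type and 3 of mec-8(e398) animals, which carry a reference allele of the splicing factor gene mec-8. The labels give the wild-type strain as N2, while the study's methods describe sorting a strain with the integrated array zdIs5, in which the mec-4 promoter drives GFP in touch receptor neurons, in both genotypes. The methods add that cells of N2 animals without GFP set the sorting gates, which were meant to keep autofluorescent cells out. A sorted cell is thus defined by that promoter, and the labels do not say which cells other than touch neurons passed the gate. The deposited values are raw counts of reads per gene, and levels are in CPM, which scales each count by the reads that fell on genes in its library. Sets of 3 values run from replicate 1 to replicate 3 of a genotype, with wild type before mec-8.

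Insulin-like peptides are small secreted proteins cut from precursors, in worms a large family that meets a single insulin receptor tyrosine kinase, DAF-2. Agonists such as DAF-28 and INS-6 activate the receptor and the PI3-kinase AGE-1, which through AKT kinases keeps the FOXO transcription factor DAF-16 out of the nucleus, whereas peptides such as INS-1 and INS-18 act as antagonists. The pathway is known for its control of dauer arrest, growth, fat and lifespan, and within touch neurons the receptor, its kinases and DAF-16 have been found to tune touch sensitivity. Most of the peptides are known from sensory neurons, interneurons, intestine or hypodermis.

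The libraries held 15334872 to 33094142 reads on genes, and 3 counts, used as the floor of detection, equalled 0.0907 to 0.196 CPM. A list of 10 touch neuron genes was detected whole in every library, but its summed level ranged from 1026 to 14706 CPM, highest in wild-type replicate 1 and mec-8 replicate 1. Markers of other tissues were present as well. Against GFP-negative cells the study reports touch neuron genes strongly enriched, and genes specific to other tissues not enriched. The libraries read here include no GFP-negative cells, so the levels below show presence and not enrichment. The 8 intestinal genes summed to between 198.6 and 18988 CPM, highest in mec-8 replicate 3, and the 6 body wall muscle genes to between 1835 and 46285 CPM, highest in wild-type replicate 3. The 6 hypodermal genes lay between 78.6 and 981 CPM and the 10 genes of ciliated sensory neurons, the usual source of several insulins, between 17.3 and 37.3 CPM. Of the latter, che-11, tax-4 and trx-1 were at 0 in 3 libraries each. Wild-type replicate 1 stood apart in that 11.1% of its reads fell on more than 1 gene, against 2.62% to 3.04% in the others. It also had 70024247 alignments to several places in the genome, against 1922629 to 11988379 in the others. The part of any of these differences in the levels below was not tested, and in sorted bulk samples fewer cells of a type and less RNA per cell cannot be told apart.

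Insulin-like peptide genes were rare transcripts in these libraries. Of the 40 genes, 37 had at least 1 count in some library, 33 reached 10 counts in at least 1 library and 4 (ins-11, ins-18, ins-30 and ins-33) reached 10 counts in all 6. The genes ins-8, ins-16 and ins-38 had 0 counts throughout. Another 4, ins-2, ins-12, ins-15 and ins-19, held at most 8 counts in any library. The family's share of all gene counts was 0.00906%, 0.0304% and 0.00413% for wild type against 0.0140%, 0.0155% and 0.00385% for mec-8. By Wilson's method the 95% intervals of wild-type replicates 1, 2 and 3 were 0.00868% to 0.00946%, 0.0297% to 0.0310% and 0.00382% to 0.00446%, and they did not overlap, with counting as the only source of error they cover.

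The number of members seen also overlapped between the genotypes. At least 1 count was held by 25, 32 and 26 members in wild type against 29, 34 and 15 in mec-8. Over all genes the numbers with a count were 13747, 18155 and 19218 in wild type against 16940, 19659 and 13613 in mec-8. The library with the fewest members, mec-8 replicate 3, thus also held the fewest genes of any kind. Depth changed the numbers of members little, since at the depth of the shallowest library the expected numbers were 24.6, 30.01 and 26 for wild type against 28.3, 32.8 and 14.99 for mec-8. The highest CPM of a member fell in mec-8 replicate 1 for 14 of the 37 genes and in wild-type replicate 3 for 0. The same split over all genes was not computed, so it is not read as a trait of the family. In mec-8 replicate 3, 25 members were at 0 counts, among them 7 that every other library held (daf-28, ins-5, ins-6, ins-14, ins-24, ins-26 and ins-27). That library also had the lowest sum over 9 pan-neuronal genes, 143.0 CPM against 229.6 to 915 CPM in the others. Of these genes, snb-1, rab-3 and unc-31 were not lowest there, at 27.75, 6.69 and 2.33 CPM, while the rest were. In the same library 7 of the 10 ciliated neuron genes were at 0, and the intestinal sum was the highest.

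**Figure D1:**
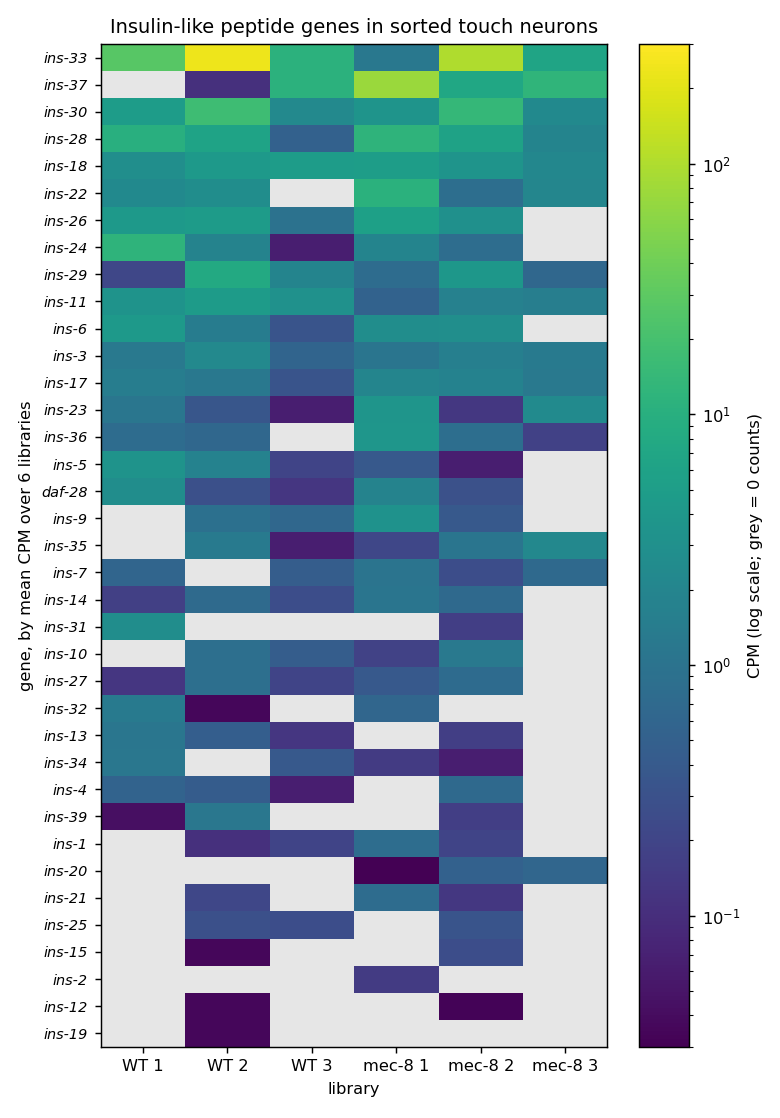
CPM of the 37 insulin-like peptide genes with a count, by library (columns; WT is wild type), ordered by mean CPM, on a log colour scale with 0 counts in grey. The rows of ins-33 and ins-37 reach the highest values, in different libraries, and the column of mec-8 replicate 3 has the most grey cells, with 15 genes above 0.

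The family's reads were concentrated in few genes. The most abundant member was ins-33 in wild-type replicates 1 and 2 and in mec-8 replicate 2, ins-37 in mec-8 replicates 1 and 3, and in wild-type replicate 3 both stood at 174 counts. It took between 27.5% and 78.4% of all insulin-like counts of its library. The summed level was 145.2 ± 139.5 CPM in wild type against 111.3 ± 63.5 CPM in mec-8 (SD, n = 3 each), a difference of -33.9 CPM that turned to 45.4 without wild-type replicate 2, to 2.53 without mec-8 replicate 3 and to 22.8 without ins-33. With ins-33 and ins-37 both set aside, the sums were 49.0 ± 26.3 CPM (SD, n = 3) and 44.2 ± 22.8 CPM (SD, n = 3). The genotypes overlapped in each of these sums.

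Set per kilobase of exon, which allows genes to be compared with each other, ins-33 led with a mean of 123 CPM per kilobase over the 6 libraries, followed by ins-37 with 18.4, ins-28 with 17, ins-30 with 10.96, ins-22 with 9.29 and ins-18 with 8.70. Below ins-33 these neighbours in the order did not differ beyond their spread, because their ranges over the libraries overlapped (0 to 78.1 for ins-37, 1.45 to 33.1 for ins-28, 3.38 to 25.7 for ins-30, 0 to 32.0 for ins-22 and 4.99 to 11.6 for ins-18). The range of ins-33 itself, 2.26 to 457, overlapped all of theirs. Among 18396 protein-coding genes with a count in any library, the mean level per kilobase of ins-33 stood at percentile 95.5, ins-37 at 73.96 and ins-28 at 72.3. In single libraries these percentiles ran from 44.6 to 98.9 for ins-33, 0 to 93.3 for ins-37 and 42.4 to 86.1 for ins-28. The median over the 37 detected members was percentile 30.95, and 10 of them stood above percentile 50. The members are short, with a median of 425.5 exon bases against 1173 for all protein-coding genes, so that at the same level per kilobase they receive fewer reads than a typical gene.

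The gene ins-33, on the minus strand of chromosome I at bases 13637845 to 13639311 of WBcel235, encodes a peptide known to promote larval germline proliferation. Its counts were 642, 6644 and 174 in wild type, or 27.7, 238 and 11.3 CPM. For mec-8 they were 39, 3008 and 150, or 1.18, 99.5 and 6.61 CPM. Both replicates numbered 2 were high and the other libraries low, so that the genotypes overlapped and the libraries of 1 genotype differed more than the genotypes did. The 6 hypodermal genes had their highest sum, 981 CPM, in wild-type replicate 2 as well, beside 234.0 CPM in replicate 1 and 494.4 CPM in replicate 3, and the mec-8 sums were 94.4, 481 and 78.6 CPM. The hypodermal collagen gene dpy-7 had 159 and 90.4 CPM in the replicates numbered 2, 60.2 CPM in wild-type replicate 3 and at most 0.997 CPM in the remaining 3 libraries. Of the same list, rol-6 and qua-1 were also highest in wild-type replicate 2, at 258 and 481 CPM. The other genes of the list were not. The hypodermal regulator nhr-23 was highest in wild-type replicate 3, at 184.5 CPM, and elt-3 and clec-1 in wild-type replicate 1, at 15.6 and 190.6 CPM. Other lists were highest in the replicates numbered 2 of each genotype as well. The 3 coelomocyte genes summed to 0.302, 1095 and 527 CPM for wild type against 3.26, 825 and 58.8 CPM for mec-8, the 5 pharyngeal genes to 213, 1467 and 1128 against 119, 729 and 160 CPM, and the 3 glial genes to 8.59, 100.9 and 71.3 against 36.9, 53.4 and 14.6 CPM. The part of these tissues in the level of ins-33 was not tested. The log2 fold change of mec-8 over wild type was -1.48 (standard error 1.55, edgeR quasi-likelihood adjusted p = 1), and 0.52 without wild-type replicate 2.

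The gene ins-37, on the minus strand of chromosome II at bases 13835101 to 13836107, showed another pattern. The wild-type libraries held 0, 3 and 174 counts, equal to 0, 0.108 and 11.3 CPM. For mec-8 the counts were 2469, 218 and 283, equal to 74.6, 7.21 and 12.5 CPM. It was scarcely seen in wild-type replicates 1 and 2, but wild-type replicate 3 lay above mec-8 replicate 2, and the genotypes overlapped. The log2 fold change was 2.91 (standard error 2.28, edgeR quasi-likelihood adjusted p = 1). Without mec-8 replicate 1 it was 1.03, and without wild-type replicate 3 it was 9.47 (adjusted p = 0.263 by the same test), where the wild-type side rests on 3 counts in a single library. The 35 genes named msp- followed by digits, which encode the major sperm proteins and were read after the values of ins-37 had been seen, summed to 1510, 26.1 and 3553 CPM for wild type against 82058, 2577 and 4083 CPM for mec-8. The highest library was mec-8 replicate 1 for both, while wild-type replicate 1 held sperm protein reads and 0 counts of ins-37. Another sperm gene, spe-9, was instead highest in wild-type replicate 3, at 37.1 CPM. Their part in the level of ins-37 was not tested. The annotation has 2 noncoding genes overlapping ins-37, which held at most 6 counts in any library.

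**Figure D2:**
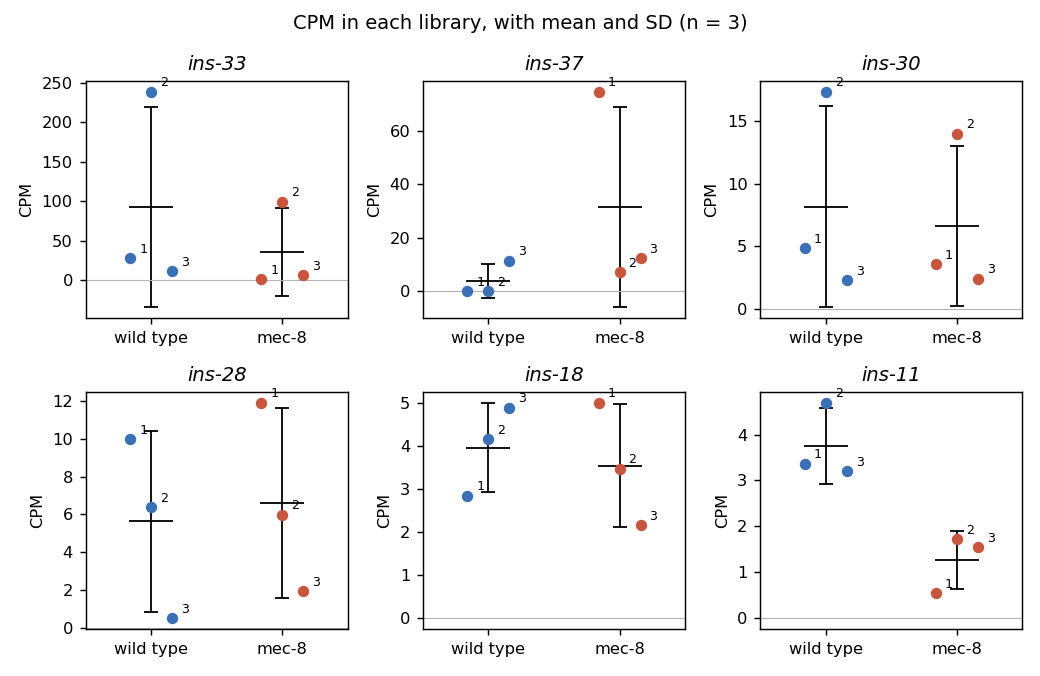
CPM of ins-33, ins-37, ins-30, ins-28, ins-18 and ins-11 in each library, with points numbered by replicate and the mean and SD of each genotype (n = 3). For ins-11 the wild-type points, 3.20 to 4.70 CPM, lie above the mec-8 points, 0.544 to 1.72 CPM, and for the other 5 genes the genotypes overlap.

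Agonists of the receptor came next in order of role. The dauer-inhibiting daf-28, known from the ASI and ASJ sensory neurons, had 64, 8 and 2 counts in wild type against 62, 9 and 0 in mec-8, or at most 2.76 CPM. It was high in the replicates numbered 1 of both genotypes and at most 9 counts elsewhere. The agonist ins-6 held 100, 40 and 5 counts in wild type against 92, 86 and 0 in mec-8, a log2 fold change of -0.02 (standard error 1.84). Counts of ins-4 were 13, 12 and 1 against 0, 21 and 0. The agonist ins-3, like ins-33 known to promote germline proliferation, was the most even of these, with 29, 64 and 9 counts against 36, 48 and 29, or 1.38 ± 0.861 CPM in wild type against 1.32 ± 0.252 CPM in mec-8 (SD, n = 3 each). The intestinal and neuronal agonist ins-7, which DAF-16 is known to repress, had 14, 0 and 7 counts against 34, 8 and 16. None of these 5 agonists separated the genotypes, and daf-28 did not pass the filter on low counts, so that edgeR gave no test of it. Of the sensory neuron markers read beside them, daf-7 of ASI had 12.2, 4.375 and 2.41 CPM in wild type against 2.36, 1.49 and 0 CPM in mec-8. Every mec-8 library lay below every wild-type library, which held for 1 of the 7 ciliated neuron genes tested and for 1.49% of all genes tested. Its log2 fold change was -2.17 (standard error 1.73, edgeR quasi-likelihood unadjusted p = 0.249). The ASJ marker trx-1 was at most 0.635 CPM.

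Antagonists were read in the same way. The gene ins-18 on chromosome I, one of the members closest to vertebrate insulin, was detected evenly, with 66, 116 and 75 counts in wild type against 166, 105 and 49 in mec-8. Its level was 3.97 ± 1.03 CPM in wild type against 3.55 ± 1.43 CPM in mec-8 (SD, n = 3 each), a log2 fold change of -0.15 (standard error 1.04, edgeR quasi-likelihood adjusted p = 1). The 6 libraries of ins-18 spanned 2.16 to 5.02 CPM, a narrow range beside that of ins-33. The antagonist ins-17 had 35, 33 and 5 counts in wild type against 66, 54 and 28 in mec-8, and ins-1, known for its part in salt learning, had 0, 3 and 3 against 27, 6 and 0. Both overlapped between the genotypes.

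The gene ins-11, on chromosome II from 5556731 to 5557173 on the plus strand, encodes an intestinal peptide known to be induced by pathogens and to act on avoidance behaviour. It had 78, 131 and 49 counts in wild type, or 3.37, 4.70 and 3.20 CPM. For mec-8 it had 18, 52 and 35 counts, or 0.544, 1.72 and 1.54 CPM. Every mec-8 library lay below every wild-type library, which held for 1 of the 23 members tested and for 1.49% of the 14614 genes tested. The means were 3.75 ± 0.823 CPM (SD, n = 3) and 1.27 ± 0.634 CPM (SD, n = 3). The log2 fold change was -1.58 (standard error 1.11, edgeR quasi-likelihood adjusted p = 1), so the difference did not pass. The 6 fits that left out a library gave values between -1.998 and -1.45, whose shared sign follows from the libraries not overlapping. DESeq2 gave -1.71 (standard error 0.746, adjusted p = 0.514). Of the 8 intestinal markers, 5 were higher in every mec-8 library than in every wild-type library, against 5.5% of all genes tested. Their sum was 3436, 771 and 199 CPM for wild type against 2290, 2853 and 18988 CPM for mec-8, with overlap, and their part in the level of ins-11 was not tested. The annotation has 0 genes overlapping ins-11.

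**Figure D3:**
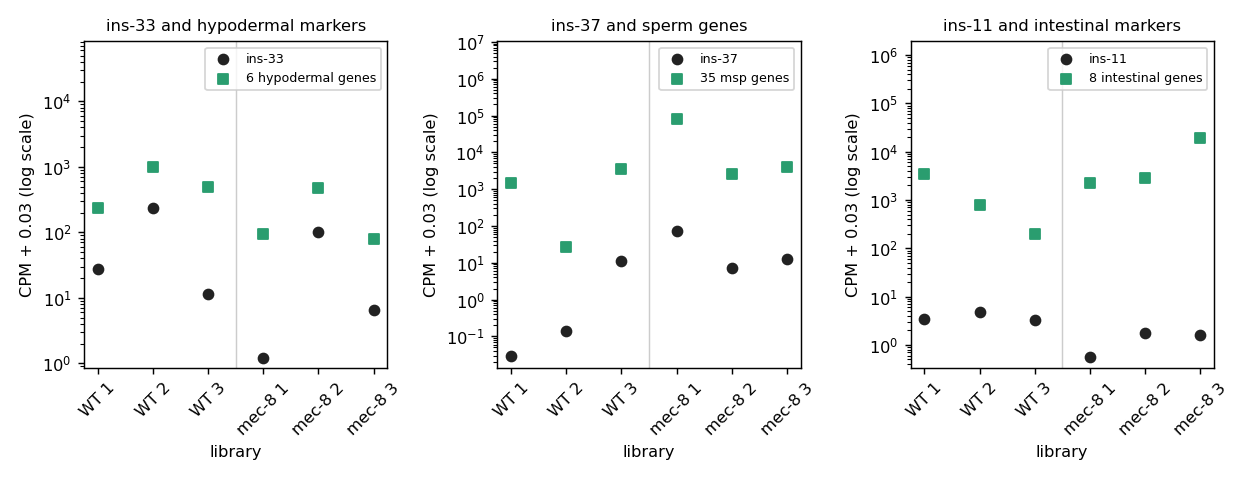
CPM, with 0.03 added and on a log scale, of ins-33 beside the summed hypodermal markers, of ins-37 beside the summed major sperm protein genes, and of ins-11 beside the summed intestinal markers, by library. The replicates numbered 2 are highest for ins-33, at 238 and 99.5 CPM, mec-8 replicate 1 is highest for both ins-37 and the sperm genes, and ins-11 is lower in mec-8 while the intestinal sum is highest in mec-8 replicate 3.

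Position in the genome gave a second ordering. Of the 40 genes, 26 lie within 50 kb of another member, in 7 clusters, and chromosomes I and II hold 10 and 16 of the genes. The cluster with the most members, on chromosome I from 14012369 to 14037777, holds ins-28, ins-29, ins-25, ins-27, ins-24, ins-30 and ins-26 in 25409 bases. Its summed level was 31.4, 39.5 and 6.20 CPM in wild type, and 24.2, 28.9 and 4.98 CPM in mec-8. Both replicates numbered 3 were thus low, at most 6.20 CPM, and the other 4 libraries were at 24.2 CPM or more.

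Within that cluster the members followed different libraries. The gene ins-30 had 112, 484 and 35 counts in wild type against 117, 423 and 54 in mec-8, high in the replicates numbered 2, with a log2 fold change of -0.30 (standard error 1.08) that turned to 0.68 without wild-type replicate 2. In the same way ins-29 had 5, 225 and 29 counts against 26, 119 and 15, again highest in the replicates numbered 2, and its log2 fold change of -0.98 (standard error 1.48) turned to 0.26 without wild-type replicate 2. The pattern of ins-28 was different, with 231, 178 and 8 counts against 394, 181 and 44, highest in the replicates numbered 1. Its log2 fold change was 0.48 (standard error 1.26), and -0.82 without mec-8 replicate 1. Counts of ins-24 were 279, 52 and 1 against 64, 24 and 0, and most of them lay in wild-type replicate 1, without which the log2 fold change of -2.11 (standard error 2.11) turned to 0.25. For ins-26 they were 98, 130 and 15 against 186, 94 and 0. The other 2 were low, ins-27 with 3, 24 and 3 counts against 13, 23 and 0 and ins-25 with 0, 8 and 4 against 0, 10 and 0. None of the 7 separated the genotypes. The unrelated genes ZC334.13 and ZC334.12, which lie between the members, stayed at or below 1.21 CPM, and their neighbours outside, ZC334.7 and nhr-276, at or below 0.364 CPM.

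A second cluster, on chromosome II from 5988524 to 6011321, holds ins-2, ins-3, ins-4, ins-5, ins-6 and ins-20. Its members differed from each other as well. Beside the agonists described above, ins-5 had 80, 49 and 3 counts in wild type against 13, 2 and 0 in mec-8, or 1.80 ± 1.63 CPM (SD, n = 3) against 0.153 ± 0.210 CPM (SD, n = 3). Its log2 fold change of -3.19 (standard error 1.95, edgeR quasi-likelihood adjusted p = 1) was the lowest of the 23 members tested, but wild-type replicate 3 lay below mec-8 replicate 1, and the genotypes overlapped. The gene ins-20 had 0 counts in the 3 wild-type libraries and 1, 16 and 14 in mec-8, and the 5 counts of ins-2 all lay in mec-8 replicate 1. Pooled over the mec-8 libraries ins-20 stood at 0.360 CPM, which is 7.97 times a floor of 3 counts over the wild-type libraries. That ratio covers neither the counting error of the mec-8 counts nor the spread between libraries. The gene did not pass the filter on low counts, and without the filter its adjusted p was 0.813 by the same test. Of the unrelated genes there, ZK84.4 inside the cluster was at 0 throughout and B0034.5 before it was at most 0.932 CPM. After it, ZK84.2 had 0, 0.932 and 46.7 CPM in wild type against 137, 24.8 and 19.0 CPM in mec-8, with overlap.

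**Figure D4:**
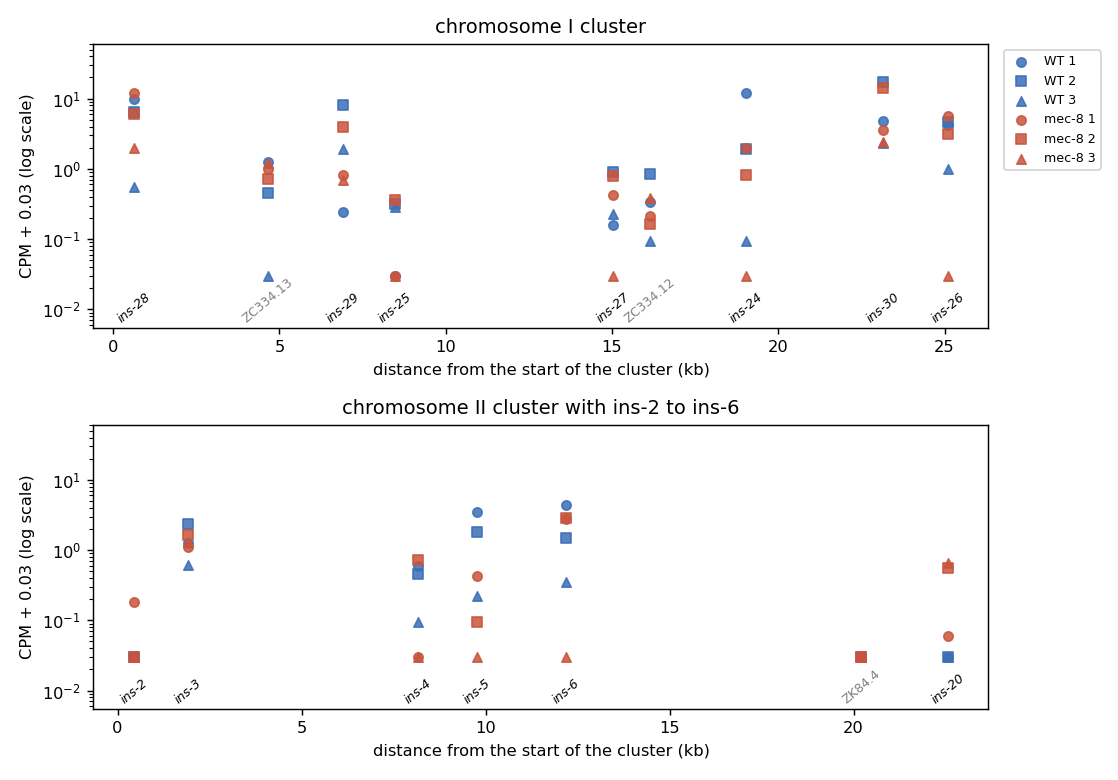
CPM, with 0.03 added and on a log scale, of each gene by its distance from the start of the cluster in kilobases, for the chromosome I cluster and the chromosome II cluster with ins-2 to ins-6. Colour gives genotype and symbol shape the replicate number (circle 1, square 2, triangle 3), and grey names mark genes that are not insulin-like. For ins-29 and ins-30 the squares, the replicates numbered 2, stand highest, and ins-20 is above 0 in mec-8 libraries alone.

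The cluster on chromosome III from 10023752 to 10028697 holds ins-21, ins-22 and ins-23, with 0 other genes between them, and is flanked by rgs-1, at most 6.95 CPM, and M04D8.4, at 0. The peptide of ins-22, much used as a tagged cargo to follow dense-core vesicles, had 55, 77 and 0 counts in wild type against 358, 25 and 47 in mec-8. For ins-23 the counts were 26, 10 and 1 against 121, 4 and 56, and for ins-21 they were 0, 6 and 0 against 26, 4 and 0. The highest library was mec-8 replicate 1 for all 3 genes, and the genotypes overlapped. The log2 fold change was 1.83 (standard error 1.83) for ins-22, which turned to -0.28 without mec-8 replicate 1, and 2.34 (standard error 1.72) for ins-23, and edgeR's quasi-likelihood adjusted p was 1 for both.

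The remaining clusters, on chromosomes II and IV, held few reads apart from ins-11. Beside ins-11, ins-13 had 26, 13 and 2 counts in wild type against 0, 5 and 0 in mec-8, but it overlaps an exon of acdh-2 on the same strand, so that its reads are uncertain. The gene ins-14 had 4, 20 and 4 counts against 35, 21 and 0. Nearly all reads of ins-31 lay in wild-type replicate 1, with 63, 0 and 0 counts against 0, 5 and 0. Each of these overlapped between the genotypes. The genes around ins-11 were mostly as low, with hlh-25, hlh-26, hlh-27, C17C3.24, C17C3.6, ZK177.1, C17C3.3 and C17C3.5 at or below 4.90 CPM. Of the rest, C17C3.9 and C17C3.11 were highest in mec-8 replicate 1, at 20 and 12.2 CPM. Next to ins-14, F41G3.6 reached 80.0 CPM and F41G3.5 57.1 CPM, and next to ins-31, chil-24 reached 22.5 CPM and srh-71 was at 0, while ins-7 and ins-8 are flanked by nhr-34, at 5.35 to 21 CPM, and htas-1, highest in mec-8 replicate 1 at 110.4 CPM.

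Of the genes that stand alone, ins-36 and ins-9 were highest in mec-8 replicate 1. The counts of ins-36 were 18, 18 and 0 in wild type against 127, 25 and 4 in mec-8, and those of ins-9 were 0, 25 and 10 against 107, 12 and 0. The gene ins-35, known from the intestine, had 0, 37 and 1 counts against 7, 32 and 51, highest in mec-8 replicate 3, the library with the highest intestinal sum. Wild-type replicate 1, with an intestinal sum of 3436 CPM, held 0 counts of ins-35. The part of intestinal RNA in the level of ins-35 was not tested. Counts of ins-10 were 0, 24 and 7 against 6, 38 and 0, and those of ins-39 were 1, 32 and 0 against 0, 5 and 0. Both were highest in a replicate numbered 2. Wild-type replicate 1 was the highest library of ins-32, with 30, 1 and 0 counts against 21, 0 and 0, and of ins-34, with 27, 0 and 6 counts against 5, 2 and 0. The genotypes overlapped for all of them. Without mec-8 replicate 1 the log2 fold change of ins-36 turned from 2.09 to -0.28. Exons of ins-10, ins-34 and ins-36 are overlapped on the other strand by vps-39, nkcc-1 and Y53H1A.7. The strand setting of the counting is not given in the sources used here. Reads falling on more than 1 gene stayed out of the counts, so those of ins-10 and ins-34 may be too low and are uncertain. Over the libraries vps-39 stood at 25.9 to 91.9 CPM and nkcc-1 at 66.4 to 492 CPM. The gene Y53H1A.7 held at most 3 counts.

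The study compared the 2 genotypes mainly for splicing in touch neurons that depends on mec-8. Counts per gene, tested here, give the level of a gene and do not show its isoforms. The filter on low counts kept 23 of the 40 members among 14614 genes, and because it asks for counts in only as many libraries as 1 genotype has, the 23 are not a sample of the whole family. Of the 23, 0 had an adjusted p under 0.05 in edgeR's quasi-likelihood test, as did 0% of all genes tested. At an unadjusted p under 0.05 there were 0 members against 3.22% of all genes (2.87% higher and 0.349% lower in mec-8), and the smallest unadjusted p of a member was 0.144, for ins-5. DESeq2 gave an adjusted p to 33 members, of which 0 were under 0.05, against 0.278% of the 15845 genes it adjusted. At an unadjusted p under 0.05 it had 3 of the 33, namely ins-11, ins-13 and ins-20, against 7.16% of those genes. With limma voom 0 of the 23 members were under either threshold, against 0% of all genes at the adjusted and 3.07% at the unadjusted p. The estimated fold change was above 1 for 12 members and below 1 for 11, where 50.5% of all genes tested were above, and the median log2 fold change was 0.02 against 0.01 over all genes. Fold changes ran from -3.19 for ins-5 to 2.91 for ins-37 on the log2 scale. The standard errors were large, with a median of 1.79 over the members against 1.24 over all genes, as was the spread between libraries of 1 genotype beyond counting noise, with a median biological coefficient of variation of 1.36 against 1.05.

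**Figure D5:**
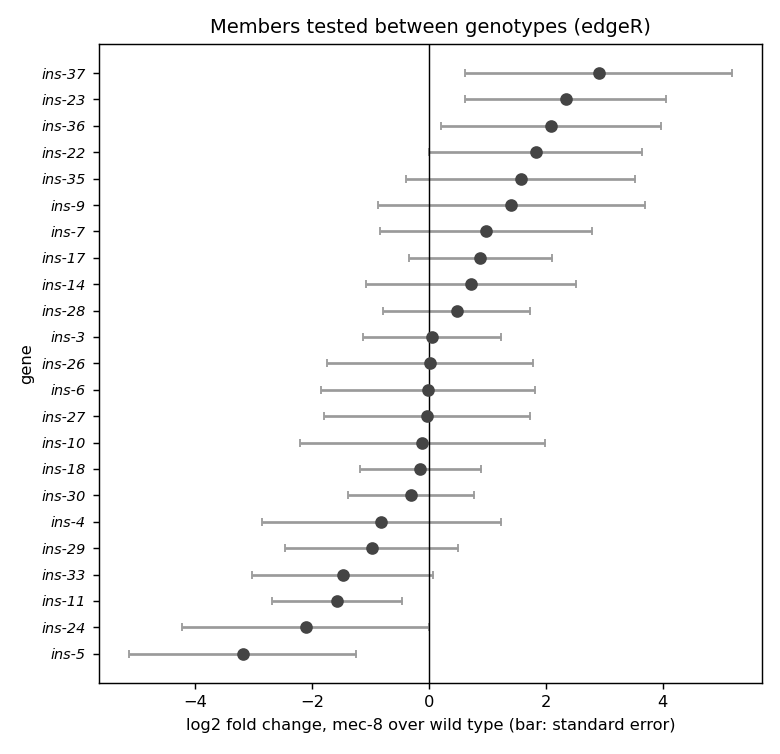
Log2 fold change of mec-8 over wild type for the 23 insulin-like peptide genes that passed the filter on low counts, from edgeR's quasi-likelihood fit, with bars of 1 standard error. Estimates run from -3.19 (ins-5) to 2.91 (ins-37), and 0 of them had an adjusted p under 0.05.

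Genes of the receptor and its pathway were better covered than the peptides. All 16 genes of that list were detected in every library. The insulin receptor gene daf-2 had 19.9, 6.67 and 15.3 CPM for wild type against 11.97, 20.8 and 11.9 CPM for mec-8, a log2 fold change of 0.01 (standard error 0.807). The PI3-kinase gene age-1 stood at 50.6 ± 14.4 CPM in wild type against 55.4 ± 29.98 CPM in mec-8 (SD, n = 3 each). Both genes overlapped between the genotypes. For the kinase gene akt-1 the levels were 51.3 ± 17.7 and 67.1 ± 5.18 CPM (SD, n = 3 each), again with overlap. The FOXO gene daf-16 had 58.0, 53.0 and 53.9 CPM for wild type against 70.0, 69.3 and 98.3 CPM for mec-8, so that every mec-8 library was above every wild-type library, by a log2 fold change of 0.58 (standard error 0.615, edgeR quasi-likelihood adjusted p = 1). Such a split towards mec-8 was also seen for skn-1 and for the kinase gene sgk-1, making 3 of 16, against 5.5% of all genes. The largest difference of the list was in sgk-1, with 6.99, 18.6 and 6.85 CPM for wild type against 22.7, 43.3 and 111 CPM for mec-8 (log2 fold change 2.60, standard error 0.884, unadjusted p = 0.0206 and adjusted p = 1 in the same test). Like the intestinal sum, sgk-1 was highest in mec-8 replicate 3. The 8 intestinal genes had a median log2 fold change of 2.92, with 8 of 8 above 0, against 50.5% of all genes tested. At an unadjusted p under 0.05 in that test 4 of these 8 were higher, against 2.87% of all genes. Their part in the level of sgk-1 was not tested. Over the 16 genes, 0 passed the adjusted test and the median log2 fold change was 0.04. At an unadjusted p under 0.05, 1 was higher and 0 were lower, against 2.87% and 0.349% of all genes tested.

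Transcripts for the machinery that cuts, packs and releases peptides were read as a list. Of the 18 genes listed, 17 were matched, all with at least 1 count in every library. In mec-8 replicate 3 unc-13 held 1 count, under the floor of 3 counts, against 28.2 CPM or more in the others. The convertase gene egl-3 had 89.0, 34.9 and 46.1 CPM for wild type against 101, 39.99 and 7.22 CPM for mec-8, and the carboxypeptidase gene egl-21 had 484, 79.0 and 261 against 349, 109.7 and 78.4 CPM. For sbt-1, whose product is the chaperone of that convertase, the levels were 430, 120 and 185 against 437, 118 and 104.2 CPM. These 3 genes were highest in the replicates numbered 1 of both genotypes and lowest in mec-8 replicate 3. The list as a whole was not, since aex-5, a convertase gene also known from the intestine, reached 4470 CPM in mec-8 replicate 3 and brought the summed level there to 4933 CPM, against 1040 to 1997 CPM in the others. Every mec-8 library was above every wild-type library for 1 of the 17 genes, against 5.5% of all genes tested. This was unc-64, which encodes syntaxin, with 8.51, 12.7 and 3 CPM for wild type against 18.2, 16.7 and 26.5 CPM for mec-8 (edgeR quasi-likelihood adjusted p = 1). The genes aex-5, unc-13 and unc-64 were chosen after their values were seen. The gene unc-31, whose product primes dense-core vesicles for release, had 0.561, 1.97 and 8.41 CPM for wild type against 38.9, 16.5 and 2.33 CPM for mec-8, with overlap and a log2 fold change of 2.27 (standard error 1.48, edgeR quasi-likelihood adjusted p = 1). Over the list, 0 genes passed the adjusted test and 0 had an unadjusted p under 0.05, against 3.22% of all genes tested. Of the 17 estimates 13 were above 0, against 50.5% of all genes tested, with a median log2 fold change of 0.50.

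Transcripts known as targets of DAF-16 were read as the far end of the pathway. Of the 16 listed genes, 14 were tested and 0 passed the adjusted test. At an unadjusted p under 0.05, 4 were higher in mec-8 and 0 lower, where 2.87% of all genes were higher. These were the metallothionein gene mtl-1 (log2 fold change 5.03, standard error 2.03), dod-3 (4.36, standard error 1.60), the ferritin gene ftn-1 (3.72, standard error 1.53) and the oxygenase gene daf-36 (3.08, standard error 1.12), each with adjusted p = 1 in edgeR's quasi-likelihood test. In mec-8 replicate 3, mtl-1, dod-3 and ftn-1 stood at 462.5, 172.5 and 155 CPM, the highest of the 6 libraries for each, and in mec-8 replicate 1 they stood at 2.12, 3.08 and 2.14 CPM, so that each overlapped between the genotypes. For daf-36 the levels were 4.97, 3.98 and 0.522 CPM in wild type against 32.0, 8.77 and 24.1 CPM in mec-8. Every mec-8 library was above every wild-type library, which held for 1 of the 14 tested and for 5.5% of all genes tested. The library with the high values of mtl-1, dod-3 and ftn-1 was the one with the highest intestinal sum, and the part of intestinal RNA in them, in cells sorted through gates meant to keep autofluorescent cells out, was not tested.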

How the data were processed

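PolyA-enriched RNA from GFP-positive cells of L4 animals was sequenced in 6 libraries, 3 wild type and 3 mec-8. Per the study's methods and the submitters' processing notes, the authors aligned the read pairs to WBcel235 (STAR) and made counts per gene (HTSeq). The deposited values are raw counts per gene, and the strand setting and HTSeq version are not given in the sources used here. Reads falling on no gene, 0.385% to 3.57% of the unique reads, and on more than 1 gene, 2.62% to 11.1%, stayed out of library sizes and tests. Depth was 15334872 to 33094142 reads on genes.

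Coordinates and exon lengths came from Ensembl release 115 of WBcel235, which held 46364 of the 46726 gene identifiers. Genotypes were compared in R 4.3.3 by the quasi-likelihood test of edgeR 4.0.16, after filterByExpr and TMM scaling, without a replicate block and with Benjamini-Hochberg adjustment over all genes at a threshold of 0.05. A standard error is the size of the log2 fold change divided by the root of its F statistic. Alternatives were DESeq2 1.42.0, limma 3.58.1 voom with sample quality weights, other normalizations and filters, a replicate block, and each library left out. The study names biological triplicates.

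The members, and the 13 lists of other genes, were chosen with earlier results of these data known. Members with at least 10 counts in some library are given in every library. Pathway genes named are 9 set by role, 1 of which is not reported here, and any with an unadjusted p under 0.05. Genes next to members within clusters are named too, and the major sperm protein genes were added after the values of ins-37 were seen. Levels between genes are compared as CPM per kilobase of exon.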

Additional observations from a re-analysis of the deposited data

How the results depend on the processing

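Under every alternative run, 0 of the insulin-like peptide genes had an adjusted p under 0.05. Over all genes the count was 0 in every alternative except DESeq2, which called 44. The range with a library left out was 0 to 0 for both counts, and -85.8 to 45.4 CPM for the difference in summed level. Of 142 fold changes of members under the 7 other settings, 127 kept their sign and 15 turned. For ins-3, with a log2 fold change of 0.06, these were DESeq2 (-0.0831), upper-quartile normalization (-0.13) and library size alone (-0.0678). For ins-26, at 0.02, DESeq2 gave -0.0282, upper quartile -0.27, library size -0.18, limma voom -1.39 and the replicate block -1.40. For ins-9, at 1.41, voom gave -0.95 and the block -0.95. For ins-14, at 0.72, voom gave -0.53 and the block -0.27. For ins-10, at -0.12, library size gave 0.13 and the block 0.13. For ins-6, at -0.02, the fit without a filter gave 0.0176. The cause of these turns was not tested.

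With a library left out, 15 of the 23 members turned sign in at least 1 fit. Their lowest and highest log2 fold changes were -0.31 and 0.47 for ins-3, -0.99 and 1.18 for ins-6, -1.90 and 2 for ins-9, -1.93 and 0.46 for ins-10, -0.65 and 1.28 for ins-14, -0.83 and 0.25 for ins-18, -0.28 and 2.27 for ins-22, -3.98 and 0.25 for ins-24, -1.58 and 0.61 for ins-26, -0.56 and 0.43 for ins-27, -0.82 and 1.23 for ins-28, -2.02 and 0.26 for ins-29, -1.21 and 0.68 for ins-30, -4.43 and 0.52 for ins-33, and -0.28 and 2.68 for ins-36. The median of all genes moved by -0.12 under upper-quartile normalization and by -0.15 under DESeq2, on the log2 scale.

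Deviations from the genotype mean, taken between libraries that share a replicate number, had correlations of 0.0574, 0.471 and -0.167 for replicates 1, 2 and 3. The libraries numbered 2 thus deviated in part together. The main fit had no block because the study's methods name none, and whether the numbers mark a shared batch is not stated. The replicate block gave 0 calls over all genes, as without it, and 240 genes at an unadjusted p under 0.05 in place of 470. The filter on low counts left 17 of the 40 members untested.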
